A study of Mus musculus with 2 samples.

Results

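Peroxiredoxins, catalase, glutathione peroxidases and superoxide dismutases are the enzymes that remove reactive oxygen species from cells, and 10 of their genes were followed here in mouse erythroblasts: Prdx1, Prdx2, Prdx3, Prdx5, Prdx6, Cat, Gpx1, Gpx4, Sod1 and Sod2. They were chosen by gene symbol, and all 10 had a row of their own among the 25791 gene rows of the deposited table. The cells, called Extensively Self-Renewing Erythroblasts (ESREs), are cultured precursors of red cells that divide for long periods without maturing, here on a C57/bl6 background. One group was proliferating ESREs (treatment label expansion) and the other was ESREs after 1 day of maturation, in both cases cultured and matured by a published ESRE protocol. The title of the series names mice that carry a β-YAC transgene, whereas the sample labels give only the background strain. The number of separate derivations behind each group is likewise not stated in those labels.

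Superoxide, a by-product of respiration and of hemoglobin oxidation, is turned into hydrogen peroxide by superoxide dismutases. Peroxiredoxins, catalase and glutathione peroxidases then reduce the peroxide, the peroxiredoxins through a reactive cysteine that is mostly restored by thioredoxin, and the glutathione peroxidases at the expense of glutathione. Red cells hold much iron and oxygen, and peroxiredoxin 2, catalase, glutathione peroxidase 1 and superoxide dismutase 1 are well known enzymes of the mature cell, which can no longer make new RNA.

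Expression was given as FPKM, a fragment number scaled to transcript length and to how many fragments of the library mapped, so that levels of different genes can be set side by side per length. Each of the 2 groups had 1 deposited value per gene. Biological duplicates are mentioned in the series text but their separate values were not used here, so differences could not be checked between replicates, and no p-value, SD or n is given. The sequencing depth is unknown. A row counted as expressed at an FPKM of at least 1 in at least 1 group, which held for 9263 rows and for all 10 enzyme genes. Log2 ratios are log2((maturation + 1)/(expansion + 1)), which understates differences of weakly expressed genes, while folds are plain ratios of FPKM. At least 2-fold means a log2 ratio of 1 or more, or of -1 or less. Within and beyond 2-fold are meant in the same way. A weakly expressed gene can thus count as within 2-fold although its plain fold is above 2. Over the 9263 expressed rows the median log2 ratio, called the table median below, was -0.25, so a typical row stood 1.19-fold lower in maturation, and each log2 ratio can be read against that value. Centred values have the table median subtracted.

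The erythroid label was checked on 10 marker genes. In expansion 8 of the 10 reached an FPKM of 1, the exceptions being the late markers Slc4a1 at 0.0744 FPKM and Alas2 at 0.975, and in maturation all 10 did. All 8 granulocyte and all 6 hepatocyte markers lay below an FPKM of 1 in both groups. Of 10 macrophage markers 1 was expressed, Cd68, at 1.18 and 0.539 FPKM. Mast cell and basophil markers summed to 26.8 FPKM in expansion and 2.75 in maturation (5 of 9 expressed, with Mcpt8 listed at 0 in both groups), and megakaryocyte markers to 22.8 and 4.13 (4 of 7 expressed). Gp9 was the 1 expressed megakaryocyte marker at a higher FPKM in maturation (0.756 and 1.84). The summed levels of both lists were lower in maturation, as were several of the enzyme genes, and their part in those differences was not tested. In bulk RNA of this kind, fewer cells of a type and less RNA per cell cannot be told apart.

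Prdx2 was the single enzyme gene with a large difference. It stood at 77.7 FPKM, and after maturation at 244 FPKM, 3.15-fold higher (log2 ratio 1.64), and was the 1 gene of the 10 that was at least 2-fold higher, where 3.13% of all expressed rows were. Among rows that reached 50 FPKM in a group, as Prdx2 did, the share was 12.0% (98 of 818). None of the 10 was at least 2-fold lower, against 6.7% of all expressed rows. Gpx1 and Gpx4 stood modestly higher, Prdx3 was nearly level, and Prdx1, Prdx5, Prdx6, Sod1 and Sod2 stood lower. After centring, Sod1 was at -0.54, Prdx6 at -0.44, Prdx1 at -0.22, Prdx5 at -0.21 and Sod2 at -0.05, close to the table median. In all, 4 of the 10 were at a higher FPKM in maturation (25.9% of expressed rows) and 6 at a lower one (74.1% of expressed rows), the sixth being Cat, whose sign depended on the scaling. The median log2 ratio of the 10 was -0.24, next to a table median of -0.25. Centred, the counts were the same, 1 gene at least 2-fold higher and none lower, against 4.53% and 3.92% of expressed rows.

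**Figure D1:**
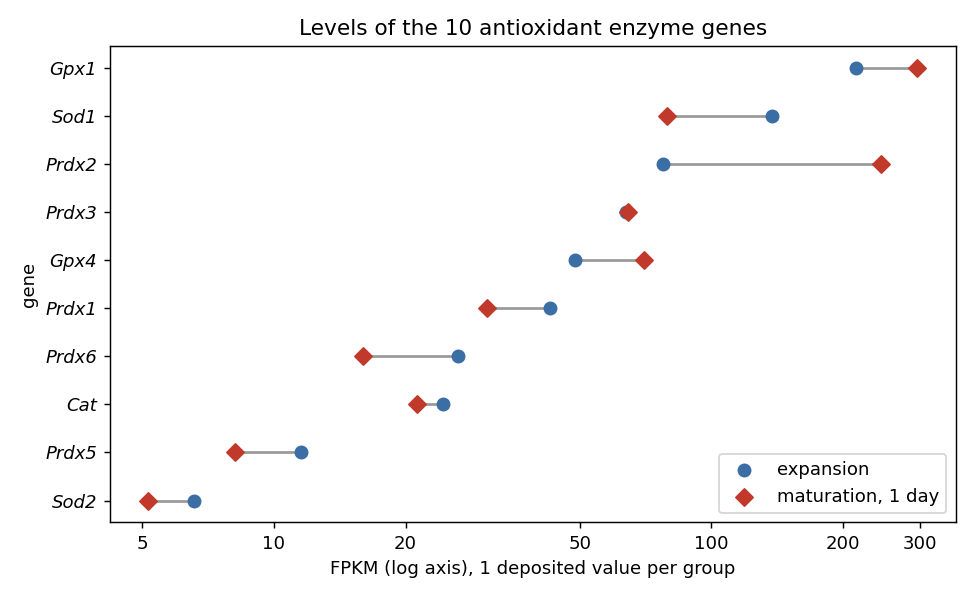
FPKM of the 10 enzyme genes on a log axis, with circles for expansion and diamonds for 1 day of maturation, 1 deposited value per group and no error bars. Prdx2 moves from 77.7 to 244 FPKM, while the symbols of Prdx3 nearly coincide at 63.9 and 64.6 FPKM and Sod1 moves down from 137 to 79.1.

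The order of the levels was led by Gpx1 in both groups and closed by Sod2 in both. In expansion the order was Gpx1, Sod1, Prdx2, Prdx3, Gpx4, Prdx1, Prdx6, Cat, Prdx5 and Sod2. In maturation it was Gpx1, Prdx2, Sod1, Gpx4, Prdx3, Prdx1, Cat, Prdx6, Prdx5 and Sod2. The changes of order were thus exchanges between neighbours: Prdx2 passed Sod1, Gpx4 passed Prdx3, and Cat passed Prdx6. With 1 value per group there is no spread against which to say which neighbours in this order differ.

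Prdx1 and Prdx2 encode the closely related cytosolic peroxiredoxins, which form dimers through a pair of cysteines and pass their electrons on from thioredoxin. The coding sequences of the longest coding transcripts of the 2 genes were 69.7% identical over 601 aligned positions (GENCODE M21), the highest identity among the pairs of peroxiredoxin genes of this set. The pair differed in opposite directions. Prdx1, on chromosome 4 (mm9 116357567 to 116372605), was at 42.7 (expansion) and 30.7 FPKM (maturation), a log2 ratio of -0.46. Prdx2, on chromosome 8 (87493547 to 87498212), went from rank 570 to rank 328 among the 9263 expressed rows, whereas Prdx1 went from rank 814 to rank 999. The ratio of Prdx2 to Prdx1 was 1.82 in expansion and 7.97 in maturation. Together the 2 genes summed to 120.4 and 275 FPKM.

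The start regions of this pair are shown because the genes are the nearest relatives of the set and stood on opposite sides of the table median. Each sequence runs from 250 bases before the annotated start to 50 after it, on the plus strand of GRCm38.p6, from RefSeq, with the Prdx1 window at chr4:116685349-116685648 and the Prdx2 window at chr8:84969372-84969671. Capitals mark a match to 1 of 3 motifs.
Prdx1: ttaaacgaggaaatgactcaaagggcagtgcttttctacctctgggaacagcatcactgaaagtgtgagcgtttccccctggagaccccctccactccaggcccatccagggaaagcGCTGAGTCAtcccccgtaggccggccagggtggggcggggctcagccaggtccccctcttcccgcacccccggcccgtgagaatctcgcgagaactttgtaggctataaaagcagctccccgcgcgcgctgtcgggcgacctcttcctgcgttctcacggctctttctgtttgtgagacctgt
Prdx2: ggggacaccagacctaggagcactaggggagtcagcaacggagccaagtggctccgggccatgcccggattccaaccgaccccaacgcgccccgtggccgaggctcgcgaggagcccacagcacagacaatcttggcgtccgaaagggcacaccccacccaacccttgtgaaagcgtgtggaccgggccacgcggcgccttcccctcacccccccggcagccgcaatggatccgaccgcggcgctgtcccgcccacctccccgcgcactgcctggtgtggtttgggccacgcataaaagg

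The motifs searched, on both strands, were TGACNNNGC (the core of the element bound by NRF2 with small MAF proteins), AGATAA (bound by GATA factors) and CCACACCC (bound by KLF1). No match to a motif overlapped a match to another. The Prdx1 window held 1 match to TGACNNNGC, on the minus strand, read as GCTGAGTCA on the printed strand and starting 133 bases before the gene's start. The Prdx2 window held none of the 3 motifs, which says only that these letters are not in this window. RefSeq windows were at hand for 9 of the 10 genes, 12 windows in all. TGACNNNGC was found for Prdx1 and Sod1, CCACACCC for Prdx3 and AGATAA for none. Of all 32851 windows of the same length, 12.4% held TGACNNNGC, 11.2% AGATAA and 3.56% CCACACCC.

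The place of Prdx2 in the table was shared mainly with globin and histone rows. Its log2 ratio was at percentile 98.5 of the expressed rows, with 137 rows above it. With small RNA rows left out, 29 other rows reached at least the Prdx2 value in both maturation FPKM and log2 ratio. Of these, 16 were histone rows, 8 were globin rows and 5 were other rows (LOC100503686, which is listed at the same locus as the globin row Hbb-bh1, and LOC100503946, LOC100503984, LOC100504142 and Mtrnr2l). Some of the 29 share a listed locus, as Hist1h3g and Hist1h4h do, so these counts are of rows and not of independent loci. By distance in log2(FPKM + 1) over the 2 values, the 6 rows most like Prdx2 were Hist2h3b, Hist1h2ad, Hist1h2ag, Hist1h3g, Hist1h3c and Mt2. The closest, Hist2h3b, was at 64.5 and 228 FPKM, and Mt2, which encodes a metallothionein, was at 98.1 and 223 FPKM. Likeness over 2 values is a description of level and ratio only.

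Relative to a hemoglobin row, each of the 4 main red cell enzymes stood lower in maturation than in expansion. Hba-a1, an adult alpha globin, was at 25.1 times the FPKM of Prdx2 in expansion and at 34.2 times in maturation. Against Gpx1 the multiple was 9.09 and 28.4, against Sod1 14.2 and 106, and against Cat 80.1 and 394. Hba-a1 was itself 4.29-fold higher in maturation, so every row with a smaller fold stands lower against it. Prdx2 was among them at percentile 98.5 of the expressed rows by log2 ratio, so this is not particular to the 4 genes. Of these 4 enzyme genes, Prdx2 kept the most even proportion to this globin row, which restates that its fold was the highest of the 4. Hba-a1 shares reads with the near-identical Hba-a2, so these multiples concern 1 row and not all alpha globin RNA.

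**Figure D2:**
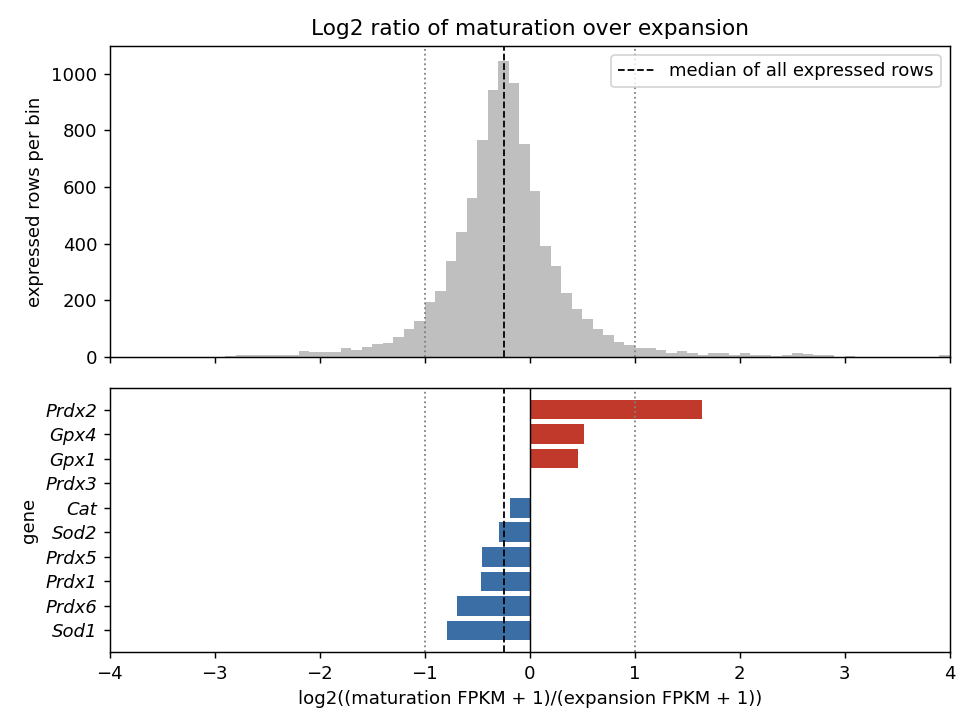
Upper panel, number of the 9263 expressed rows in bins of the log2 ratio, with 8 rows beyond 4 in either direction counted in the outermost bins. Lower panel, log2 ratio of each enzyme gene; the dashed line is the table median (-0.25), dotted lines mark -1 and 1, and Prdx2 at 1.64 is the 1 bar that passes a dotted line.

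Prdx3, Prdx5 and Sod2 were grouped as genes of enzymes found in mitochondria. The enzymes are peroxiredoxin 3 of the matrix, peroxiredoxin 5, which is also found in peroxisomes and cytosol, and the manganese superoxide dismutase. The grouping does not say that other enzymes of the set are absent from mitochondria. The 3 rows summed to 82.1 FPKM and, after maturation, 77.9 FPKM, a ratio of 0.950. Prdx3, on chromosome 19 (60939969 to 60950441), accounted for most of it at 63.9 and 64.6 FPKM (log2 ratio 0.02). Prdx5, also on chromosome 19 (6981309 to 6984135), was at 11.6 and 8.17 FPKM (log2 ratio -0.45). Sod2, on chromosome 17 (13200705 to 13210985), was the lowest gene of the set at 6.57 and 5.16 FPKM (log2 ratio -0.30). All 3 stayed within 2-fold, and Prdx3 stood above the table median while Prdx5 and Sod2 lay under it.

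Prdx6 encodes a peroxiredoxin that uses a single cysteine and glutathione, and that also acts on phospholipids. It was at 26.4 (expansion) and 15.99 FPKM (maturation) (chromosome 1, 163170243 to 163181297), 1.65-fold lower, with the second-lowest log2 ratio of the set (-0.69). Of all windows of 36 bases in the longest coding Prdx6 transcript, 2.38% also occurred in transcripts of other genes, and 0% of windows of 75 bases did.

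Within the peroxiredoxins the make-up of the RNA differed between the groups. The 5 rows summed to 222 FPKM in expansion and 364 in maturation, a ratio of 1.64. Prdx2 made up 34.9% of the sum in expansion and 67.2% in maturation. The share of Prdx3 was 28.8% and 17.8%, that of Prdx1 19.2% and 8.43%, that of Prdx6 11.9% and 4.40%, and that of Prdx5 5.20% and 2.25%. Without Prdx2 the other 4 rows summed to 145 FPKM and 119 FPKM. With Prdx4 added, the share of Prdx2 was 34.2% and 66.3%.

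Cat encodes catalase, the heme enzyme that breaks down hydrogen peroxide, peroxisomal in most cells and cytosolic in red cells. It was at 24.4 (expansion) and 21.3 FPKM (maturation) (chromosome 2, 103294061 to 103325310), a log2 ratio of -0.19. That value was above the table median, and the sign turned when the ratio was centred (0.06) or taken after rescaling without globin and small RNA rows (0.05). No direction is therefore given for Cat. Its rank among the expressed rows was 1237 in expansion and 1300 in maturation. The FPKM of Prdx2 was 3.19 times that of Cat in expansion and 11.5 times in maturation, and that of Gpx1 8.81 and 13.9 times.

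Gpx1 and Gpx4 encode glutathione peroxidases that carry selenocysteine at the catalytic site, the first acting on hydrogen peroxide and the second on lipid hydroperoxides within membranes. Selenocysteine is inserted at an in-frame TGA codon (UGA in the RNA) that would otherwise end translation. The coding sequence around this codon is shown for both genes, from GENCODE M21, because the codon is what sets this pair apart from the other 8 genes, none of which had an annotated selenocysteine. Capitals mark the codon, which is codon 47 of 201 in transcript Gpx1-201 and codon 129 of 253 in Gpx4-201, counted from the start codon and leaving out the stop codon. Each is the longest coding transcript among 3 annotated protein-coding ones of its gene, and codon numbers can differ in the others.
Gpx1: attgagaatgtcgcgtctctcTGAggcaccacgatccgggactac
Gpx4: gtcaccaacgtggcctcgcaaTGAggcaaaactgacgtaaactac
The windows of 45 bases had 25 identical positions.

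Both glutathione peroxidase genes stood higher in maturation by nearly the same proportion. Gpx1, on chromosome 9 (108241607 to 108242671), was at 215 FPKM, and after maturation at 295, 1.38-fold higher (log2 ratio 0.46). Gpx4, on chromosome 10 (79516255 to 79519184), was at 48.8 and 70.1 FPKM, 1.44-fold higher (log2 ratio 0.51). Their log2 ratios were at percentiles 91.8 and 92.7 of the expressed rows, and both kept their sign after centring and after each rescaling. Gpx1 stood at 4.40 times the FPKM of Gpx4 in expansion and at 4.21 times in maturation. The level of Gpx4 is the least certain of the set, since 65.2% of its transcript windows of 36 bases and 55.3% of those of 75 bases also occur in other transcripts, mostly of the pseudogene Gpx4-ps2. No window of Gpx1 was shared at 36, 50 or 75 bases.

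The 8 peroxide-removing rows, peroxiredoxins, Cat, Gpx1 and Gpx4, summed to 509.99 FPKM in expansion and 750.5 in maturation, 1.47-fold higher. Prdx2 accounted for 69.3% of this net difference and Gpx1 for 33.5%. The share of Prdx2 in the sum was 15.2% in expansion and 32.6% in maturation. Gpx1 kept the largest share in both groups, at 42.1% and 39.3%. Cat made up 4.78% and 2.83%, and Gpx4 9.57% and 9.34%.

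**Figure D3:**
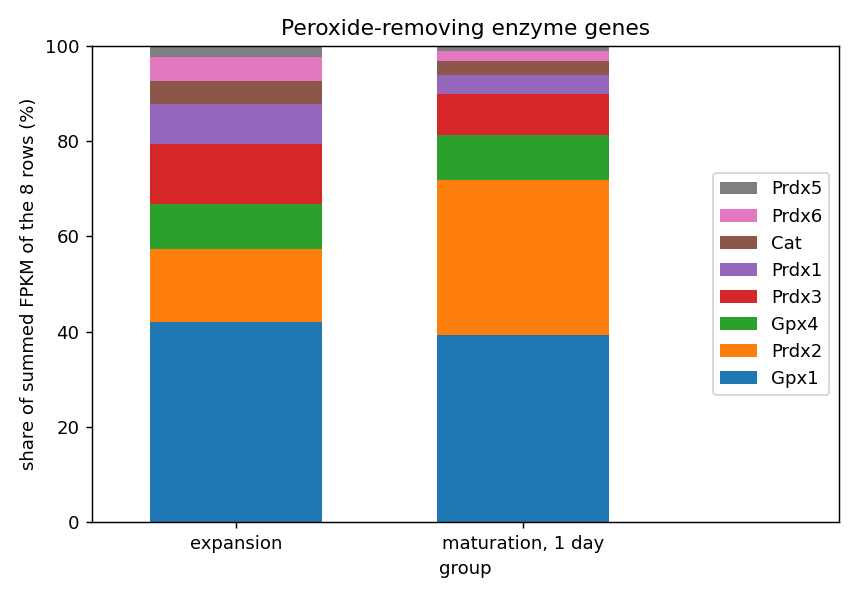
Share of each of the 8 peroxide-removing rows in their summed FPKM (%), 1 stacked bar per group. The Gpx1 part is 42.1% and 39.3% of the bar, while the Prdx2 part is 15.2% in expansion and 32.6% in maturation.

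Sod1 encodes the copper and zinc superoxide dismutase of the cytosol. It was at 137 (expansion) and 79.1 FPKM (maturation) (chromosome 16, 90220987 to 90226569), 1.74-fold lower, and its log2 ratio of -0.79 was the lowest of the set, at percentile 11.6 of the expressed rows. After centring it was -0.54. Sod1 stood at 20.9 times the FPKM of Sod2 in expansion and at 15.3 times in maturation, and the 2 rows summed to 144 and 84.3 FPKM. Ccs, the copper chaperone of Sod1, was at 5.88 and 6.08 FPKM. Set against Prdx2, Sod1 stood at 1.77 times its FPKM in expansion and at 0.324 times in maturation. Of Sod1 transcript windows of 36 bases 31.8%, and of 75 bases 12.2%, also occurred in the pseudogene Gm8566.

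Reads from other genes could also touch Prdx1 and Prdx2. For Prdx2, 28.9% of windows of 36 bases and 17.4% of those of 75 bases occurred elsewhere on either strand, in Tdpx-ps1, in Prdx2-rs3 at 36 and 50 bases, and in transcripts of the neighbouring genes Junb and Rnaseh2a. Junb, an immediate early transcription factor gene 2598 bases away in the table, was at 8.10 (expansion) and 2.33 FPKM (maturation). Rnaseh2a was at 5.22 and 7.35. Both neighbours were far below Prdx2 in both groups. Tdpx-ps1, which shared 11.9% of the windows of 36 bases, and Prdx2-rs3 had no row under these symbols, so their levels are unknown. For Prdx1 the shared part was 15.6% at 36 bases and 5.63% at 75 bases. The locus of Prdx1 was also listed for LOC100502959, at 0.0590 and 0.0499 FPKM, and no other locus of the set overlapped another row. Any use of the strand in counting is not stated in the labels.

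The partners of these enzymes were examined in 10 lists of other genes of the pathway. Together they held 82 expressed genes, of which 2 were at least 2-fold higher in maturation (2.44%, against 3.13% of all expressed rows) and 10 at least 2-fold lower (12.2%, against 6.7%). Centred, 2 were at least 2-fold higher (2.44%, against 4.53%) and 2 at least 2-fold lower (2.44%, against 3.92%), so the share of lower genes was above that of all expressed rows only before centring. The list medians ranged from -0.99 for makers of superoxide and peroxide, with 2 expressed genes, to 0.04 for other peroxiredoxin, peroxidase and dismutase genes, with 3.

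Of the other peroxiredoxin, peroxidase and dismutase genes 3 of 9 were expressed. None of the 3 was beyond 2-fold, where 3.13% of all expressed rows lay on the higher side and 6.7% on the lower. Prdx4, the peroxiredoxin of the endoplasmic reticulum, was at 4.99 and 4.52 FPKM, and Gpx2 at 0.776 and 1.04. Gpx3, Gpx5, Gpx6, Gpx7, Gpx8 and the extracellular dismutase gene Sod3 lay below an FPKM of 1 in both groups.

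The thioredoxin system, which restores oxidized peroxiredoxins, was mostly level. Of 9 expressed genes none was 2-fold or more higher and 1 was 2-fold or more lower (3.13% and 6.7% of all expressed rows). The list median was -0.0016, above the table median. Txn1, cytosolic thioredoxin, was at 48.96 and 44.2 FPKM, and its reductase Txnrd1 at 19.1 and 20.7. Of the mitochondrial pair, Txnrd2 was at 4.17 and 6.33 FPKM, and Txn2, chosen after its values were seen, at 32.1 and 32.1 FPKM. Srxn1, sulfiredoxin, which repairs overoxidized peroxiredoxins, was at 8.47 and 9.55 FPKM, and Sesn2 at 5.22 and 3.39. The gene beyond 2-fold was Txnip, whose protein binds and inhibits thioredoxin, at 9.73 and 2.62 FPKM.

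Glutathione genes lay on both sides of 0, with 5 above and 5 below, where 25.9% and 74.1% of all expressed rows lay. Among 10 expressed genes 1 was at least 2-fold higher and 2 were at least 2-fold lower (3.13% and 6.7% of all expressed rows). Those lower were Ggct and Chac1, both enzymes of glutathione breakdown, at 2.35 and 0.514 FPKM and at 2.69 and 0.798 FPKM, and centred neither was at least 2-fold lower. The higher one was Glrx5, a mitochondrial glutaredoxin of iron-sulfur cluster assembly, at 37.5 and 76.4 FPKM, while Glrx3 was at 21.8 and 12.4. Gsr, glutathione reductase, was at 8.41 and 6.96 FPKM. Of the synthesis genes, named after their values were seen, Gclc was at 5.77 and 7.30 FPKM, Gclm at 31.9 and 41.01, and Gss at 4.25 and 5.92.

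Genes that supply NADPH, the reductant behind both thioredoxin and glutathione, lay mostly under the table median. Of 8 expressed genes 7 had a log2 ratio under the table median, none was at least 2-fold higher and 2 were at least 2-fold lower (6.7% of all expressed rows were). Their median was -0.67. Mthfd2, named after its values were seen, was the 1 gene of the list at a higher FPKM, at 16.6 and 25.96. Both isocitrate dehydrogenase genes were beyond 2-fold, Idh1 at 5.09 and 1.76 FPKM and Idh2 at 12.2 and 4.89. Nnt, the mitochondrial transhydrogenase, was at 1.25 and 0.395 FPKM, and Nadk at 10.3 and 5.63. The plain ratio of Nnt was 3.17-fold lower, with a log2 ratio of -0.69. Centred, none of the 8 was at least 2-fold lower.

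**Figure D4:**
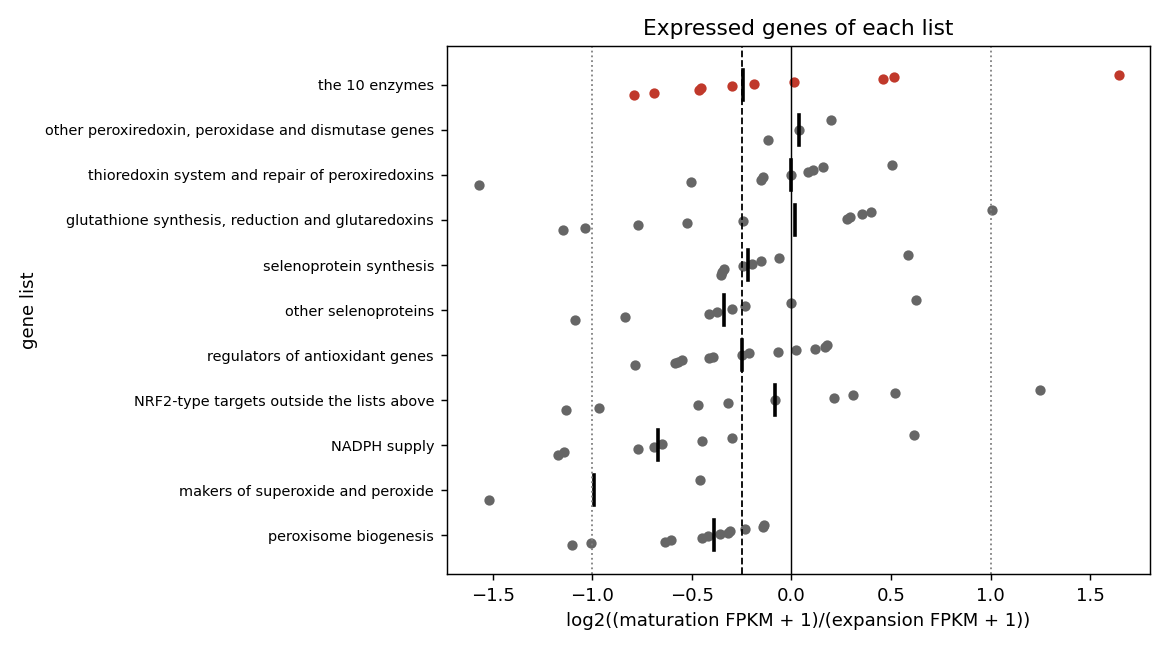
Log2 ratio of every expressed gene in the 10 enzymes and in each of the 10 other lists, with a point per gene, a black bar at each list's median and a dashed line at the table median (-0.25). The NADPH and superoxide-making lists have the lowest medians (-0.67 and -0.99), and Prdx2 at 1.64 is the point farthest to the right.

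Genes of selenoprotein synthesis, on which Gpx1 and Gpx4 depend, lay close to the table median. Of 8 expressed genes 7 stood at a lower FPKM in maturation, as did 74.1% of all expressed rows. Above the table median lay 5 of the 8, and the list median was -0.22 beside the table median of -0.25. None was beyond 2-fold, where 3.13% of all expressed rows lay on the higher side and 6.7% on the lower. Sephs2, which makes the selenium donor, was at 13.3 and 10.2 FPKM, Pstk at 2.49 and 1.74, Trnau1ap at 4.49 and 3.34, and Scly, which releases selenium from selenocysteine, at 2.70 and 4.55. Of 8 other expressed selenoprotein genes 1 was at a higher FPKM (25.9% of all expressed rows were), Sepw1 at 25.6 and 40.1. At least 2-fold lower was 1 of them (6.7% of all expressed rows were), H47 (the row of Sels), at 6.52 and 2.55. Sep15 was at 32.8 and 24.4 FPKM, and 2700094K13Rik (the row of Selh) at 27.3 and 14.9.

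Regulators of antioxidant genes stayed within 2-fold by log2 ratio in all 13 expressed cases, with a median of -0.25. Most expressed rows did so too, since 3.13% of them lay beyond 2-fold upward and 6.7% downward. Nfe2l2, which encodes NRF2, was at 10.8 and 7.08 FPKM, its inhibitor Keap1 at 4.55 and 3.68, and the heme-sensing repressor Bach1 at 1.85 and 2.21. Foxo3, a known activator of antioxidant genes in erythroblasts, was at 3.09 and 3.43 FPKM. Park7 was at 45.6 and 26.1 FPKM, Nfe2l1 at 4.18 and 2.46, and Maff at 1.22 and 0.492. The plain ratio of Maff was 2.47-fold lower, with a log2 ratio of -0.57. Of 9 expressed genes in the list of NRF2-type targets, Blvrb, a biliverdin reductase gene, was at least 2-fold higher at 49.2 and 118 FPKM. Hmox1, heme oxygenase, was at least 2-fold lower at 4.99 and 1.73 FPKM. Ftl1, ferritin light chain, was at 549 and 789 FPKM, and Abcc1 at 5.01 and 2.07. The plain ratio of Abcc1 was 2.42-fold lower, with a log2 ratio of -0.97.

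Of 10 makers of superoxide or peroxide 2 were expressed, and both lay under the table median. Ero1l, the oxidase of protein folding in the endoplasmic reticulum, was at 13.0 and 3.90 FPKM, and Cyba, a subunit of the phagocyte oxidase, at 29.05 and 20.8. Cybb, the catalytic subunit of the phagocyte oxidase, was below an FPKM of 1 in both groups. All 12 expressed genes of peroxisome biogenesis were at a lower FPKM in maturation, where 74.1% of all expressed rows were. Of the 12, 9 lay under the table median and 2 were at least 2-fold lower (6.7% of all expressed rows were). These 2 were Pex5, the receptor that imports catalase and other matrix proteins, at 4.71 and 1.66 FPKM, and Pex13 at 1.97 and 0.477. Pex14 was at 2.51 and 1.26 FPKM and Pex6 at 1.68 and 0.761. The plain ratio of Pex6 was 2.21-fold lower, with a log2 ratio of -0.61. After centring none of the 12 was at least 2-fold lower.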

How the data were processed

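RNA was measured by sequencing in 2 groups of ESREs, expansion and maturation. The authors deposited FPKM values, per the file headers, with 1 value for each gene in each group. The submitters' processing notes name Cuffdiff 2.0.2 and the mouse build mm9. Aligner, annotation, filters and any pooling of duplicates were not given in the sources used here. Values were used as the authors' value of each group. Library preparation by a NextFlex kit on total RNA is stated in the labels' protocols. Start positions in the table were counted from 0, since 190 of 190 microRNA rows compared then had their RefSeq length, and are printed counted from 1.

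Rows were found by gene symbol. The other lists held 110 entries: 104 were found by symbol and 4 through RefSeq synonyms, and Seli and Pex2 were not analysed here. The 10 genes and the lists were chosen with earlier results of these data known. The text names all 10 genes, up to 4 genes per list with the largest absolute log2 ratio, a fixed set of partners, and the 6 rows nearest to Prdx2. Differences of size replaced tests because there was 1 value per group. Shared windows were exact matches to transcripts of other genes in GENCODE M21, on both strands. Sequences are from GENCODE M21 and RefSeq (GRCm38.p6), and no coordinates were converted between builds. Alternatives were pseudocounts of 0.1 and 5, other filters, centring and rescaling. Python 3.11.15, pandas 2.3.3, NumPy 2.4.6 and Biopython 1.88 were used, and the ratio calculation was checked on simulated data. Some genes are not reported here.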

Additional observations from a re-analysis of the deposited data

How the results depend on the processing

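The count of the 10 enzyme genes at least 2-fold higher was 1 and the count at least 2-fold lower was 0 under every alternative run: pseudocounts of 0.1 and 5, centring on the median of expressed rows, rescaling without small RNA rows or without globin and small RNA rows, no filter, and a minimum FPKM of 5. The changes of filter could not alter these counts, since all 10 genes were above an FPKM of 5 in expansion. The log2 ratio of Prdx2 lay between 1.59 (pseudocount of 5) and 1.89 (rescaled without globin and small RNA rows). Prdx1, Prdx5, Prdx6, Sod1 and Sod2 stayed below 0 and Prdx2, Prdx3, Gpx1 and Gpx4 above 0 under each pseudocount and scaling, whereas Cat turned from -0.19 to 0.06 after centring and to 0.05 after rescaling without globin and small RNA rows, so the split became 5 above and 5 below. The median of the 10 moved from -0.24 to 0.0051 after centring, which subtracts -0.25 by construction. The share of Prdx2 in peroxiredoxin FPKM moved to 34.2% in expansion and 66.3% in maturation with Prdx4 added, as 1 more row then enters the sum. No paired analysis was possible because the table holds 1 value per group and no replicate could be left out. The depth is unknown, so no limit of detection can be set, and differences of the size seen for Cat, Prdx3 or Sod2 have no error to be read against.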
